A study of Mus musculus with 32 samples.

Results

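The acyl-CoA thioesterases were followed here as 10 genes, Acot1, Acot2, Acot3, Acot4, Acot5, Acot7, Acot8, Acot9, Acot12 and Acot13, picked by symbol from the 32544 gene symbols of the counts table. All 10 had a row, and the rule used the symbols alone. Bulk RNA-Seq with poly-A selection had been run on kidney cortex of 32 mice of the C57BL/6J-Col4a3tm1Dec strain at 25 weeks of age. Control mice were heterozygous (Col4a3+/-) and Alport mice were Col4a3-/-, so the controls also carried 1 copy of the mutant allele. Each genotype received vehicle or nicotinamide riboside (NR), a precursor of NAD+, and males and females formed separate groups. This gave 8 groups of 4 mice: male control vehicle, male control NR, male Alport vehicle, male Alport NR, and the same 4 groups of females.

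Acyl-CoA thioesterases split a fatty acyl-CoA into the free fatty acid and coenzyme A, the reverse of the step that acyl-CoA synthetases carry out before a fatty acid can be oxidized. The type I enzymes share an alpha/beta-hydrolase fold and differ in where they work: Acot1 in the cytosol, Acot2 in mitochondria, and Acot3, Acot4 and Acot5 in peroxisomes. The type II enzymes have a hotdog fold instead: Acot7 (cytosol), Acot8 (peroxisomes), Acot9 (mitochondria), Acot12 (a cytosolic enzyme that hydrolyzes acetyl-CoA) and Acot13 (mitochondria). Several type I genes are known targets of PPAR alpha, a fatty acid-sensing nuclear receptor, and proximal tubule cells of the kidney cortex take most of their energy from fatty acids.

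The type II members are scattered: Acot7 (chr4:152178134-152271855), Acot8 (chr2:164792765-164804882, minus strand), Acot9 (chrX:155262443-155297654), Acot12 (chr13:91741512-91786148) and Acot13 (chr13:24817948-24831540, minus strand). The 5 type I members lie next to each other on chromosome 12 of GRCm38 (mm10), all on the plus strand, in the order Acot2 (chr12:83987861-83993873), Acot1 (chr12:84009490-84018371), Acot4 (chr12:84038379-84048601), Acot3 (chr12:84052144-84060402) and Acot5 (chr12:84069325-84076020), followed by the related gene Acot6 (chr12:84100654-84111349), which is no member. The coding sequences of Acot1 and Acot2 were 95.6% identical, against 84.2% for Acot1 and Acot3 and 76.1% for Acot1 and Acot4. The same 90-base stretch of the coding exons is printed for each gene to show how few bases separate Acot1 from Acot2. It covers bases 544 to 633 of the Acot1 coding sequence, and capitals mark bases that differ from Acot1.
Acot1: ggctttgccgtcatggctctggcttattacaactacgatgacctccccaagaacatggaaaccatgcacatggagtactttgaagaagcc
Acot2: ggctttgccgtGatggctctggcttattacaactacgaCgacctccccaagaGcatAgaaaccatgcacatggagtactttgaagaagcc
Acot3: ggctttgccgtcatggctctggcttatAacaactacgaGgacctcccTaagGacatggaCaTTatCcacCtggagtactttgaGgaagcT
Acot4: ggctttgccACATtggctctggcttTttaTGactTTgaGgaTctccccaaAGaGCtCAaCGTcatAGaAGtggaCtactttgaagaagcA
In this stretch Acot2 differed from Acot1 at 4 bases, Acot3 at 11 and Acot4 at 26.

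Reads from such copies can be shared out differently by different counting methods. Of all 100-base windows of the spliced transcripts, 12.4% of those of Acot1 and 17.1% of those of Acot2 occurred in another gene as well, for Acot2 in Acot1 alone. The share was 15.9% for Acot3 and 8.24% for Acot4, with 4732463B04Rik, an overlapping gene on the opposite strand, among the partners of both. The first partner of Acot3 was Gm49366, whose exons overlap it by up to 203 bases on the same strand. Neither Gm49366 nor 4732463B04Rik was among the gene symbols counted, so where their reads went is not known. It was 7.14% for Acot8, from the exons of Snx21 on the opposite strand, and 0 for Acot7 and Acot13. The handling of reads with several matches, the read length and the use of strand in counting were not given in the sources used here, so single type I values are uncertain to that extent, and reads from overlapping genes on opposite strands cannot be told apart. The sum over Acot1 to Acot6 is therefore given beside the single genes, although it cannot correct for reads from genes outside this set.

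The libraries held 16621944 to 27778797 counts, with a median of 22071395. Col4a3, the targeted gene, was at 49.0 to 83.7 CPM (counts scaled by effective library size, with TMM factors over all 32 libraries) in the Alport mice and at 105 to 200.1 CPM in 13 of the 16 controls. In male control NR mice 1, 2 and 3 it was at 59.0, 93.7 and 74.9 CPM, so that mice 1 and 3 lay within the Alport range. The log2 ratio of Col4a3 to Col4a4, looked at after this overlap was seen, was -0.90 to -0.28 in all controls and -1.77 to -1.28 in all Alport mice, with no overlap. Male Alport NR mouse 1 stood apart from its group on the first principal component (77.4, against 0.55 to 25.9 in the other 3 mice). The NR results of the male groups are given with all mice and without these.

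The level of kidney markers moved with genotype. The summed CPM of 12 proximal tubule markers was 23810 to 26118 in male control vehicle and 8002 to 13275 in male Alport vehicle mice, and 16945 to 19879 and 7460 to 11897 in females. In males all 12 were lower in Alport mice by the test used below, and in females 10 were lower and 2, Slc7a13 and Cyp2e1, were higher. All 7 fibroblast markers were higher in Alport mice of both sexes, and of 8 tested macrophage and lymphocyte markers 8 were higher in males and 7 in females. Of 6 podocyte markers 6 were called higher in males and 5 in females, and of 6 endothelial markers 5 and 3. Of 8 loop of Henle and collecting duct markers 5 were called lower in each sex. Of 8 adipocyte markers, Adipoq was at 0 counts in 26 mice and Lep in 29, while Fabp4, which endothelial cells and macrophages also express, had 236 to 900 counts in every mouse and was called higher in Alport mice of both sexes. None of the others exceeded 52 counts in any mouse, so the summed CPM of this list is mostly Fabp4. That sum was higher with NR in controls, at 20.6 to 53.0 against 14.0 to 18.3 in males and 23.4 to 55.1 against 10.3 to 18.3 in females. In these NR comparisons 1 of the 8 was tested in each sex and 0 were called, with 1 at an unadjusted p under 0.05. In bulk cortex, fewer cells of a type and less RNA per cell cannot be told apart, and the part of these shifts in the results that follow was not tested.

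**Figure D1:**
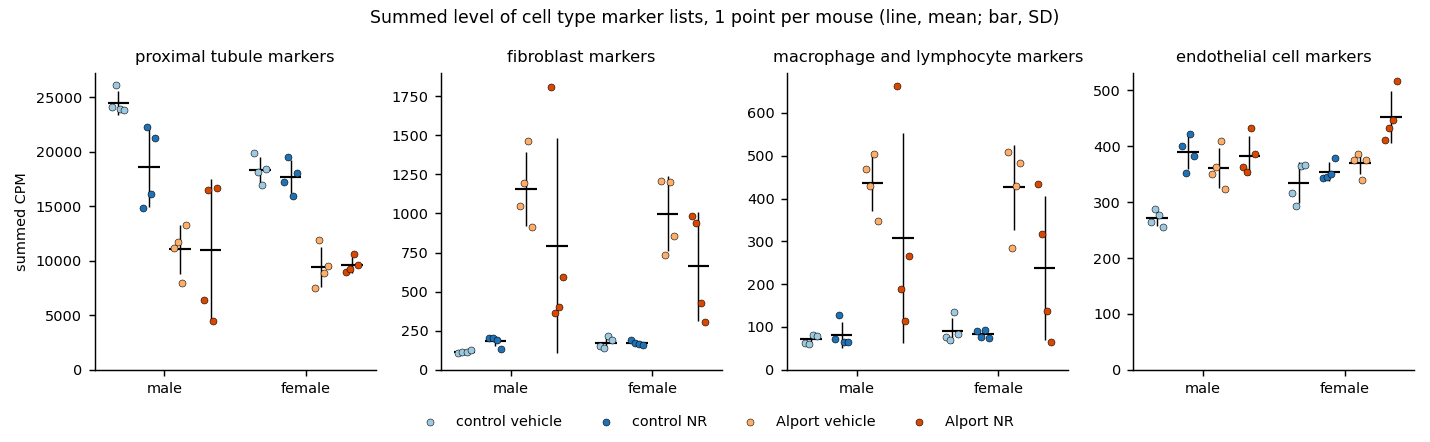
Summed CPM of the marker genes of 4 cell types (y axes) in each mouse (points), by sex (x axes) and group (colors), with the mean (line) and SD (bar) of 4 mice. Proximal tubule sums of the Alport mice lie below those of the vehicle-treated controls, while fibroblast sums rise from at most 215 in the controls to at least 305 in the Alport mice.

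All members but Acot5 were expressed well above the limit of detection. Acot5 had 0 to 8 counts in 31 mice and 67 counts in male Alport NR mouse 3, and it did not pass the low-count filter of any comparison, so each comparison tested 9 of the 10 members. Levels of different genes were compared as CPM per kb of exon. In male control vehicle mice Acot13 (86.3 CPM per kb, 71.1 to 97.0 in the 4 mice) and Acot12 (82.2, 75.4 to 89.9) were the most abundant members, and their ranges overlapped. The next were Acot9 at 19.5, Acot1 at 17.9, Acot8 at 16.3 and Acot2 at 14.7 CPM per kb, then Acot4 at 11.7, Acot3 at 8.75 and Acot7 at 8.52, and from Acot9 on the ranges of neighbors in this order overlapped. In female control vehicle mice Acot13 was again highest at 86.3 CPM per kb, ahead of Acot12 at 34.9, Acot3 at 26.8 and Acot1 at 23.8. The ranges of Acot13, Acot12 and Acot3 did not overlap, while those of Acot3 and Acot1 did. Over all 32 mice the ratio between the highest and the lowest group mean was 6.89 for Acot1 and 6.48 for Acot3 but 1.59 for Acot9 and 1.80 for Acot8.

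**Figure D2:**
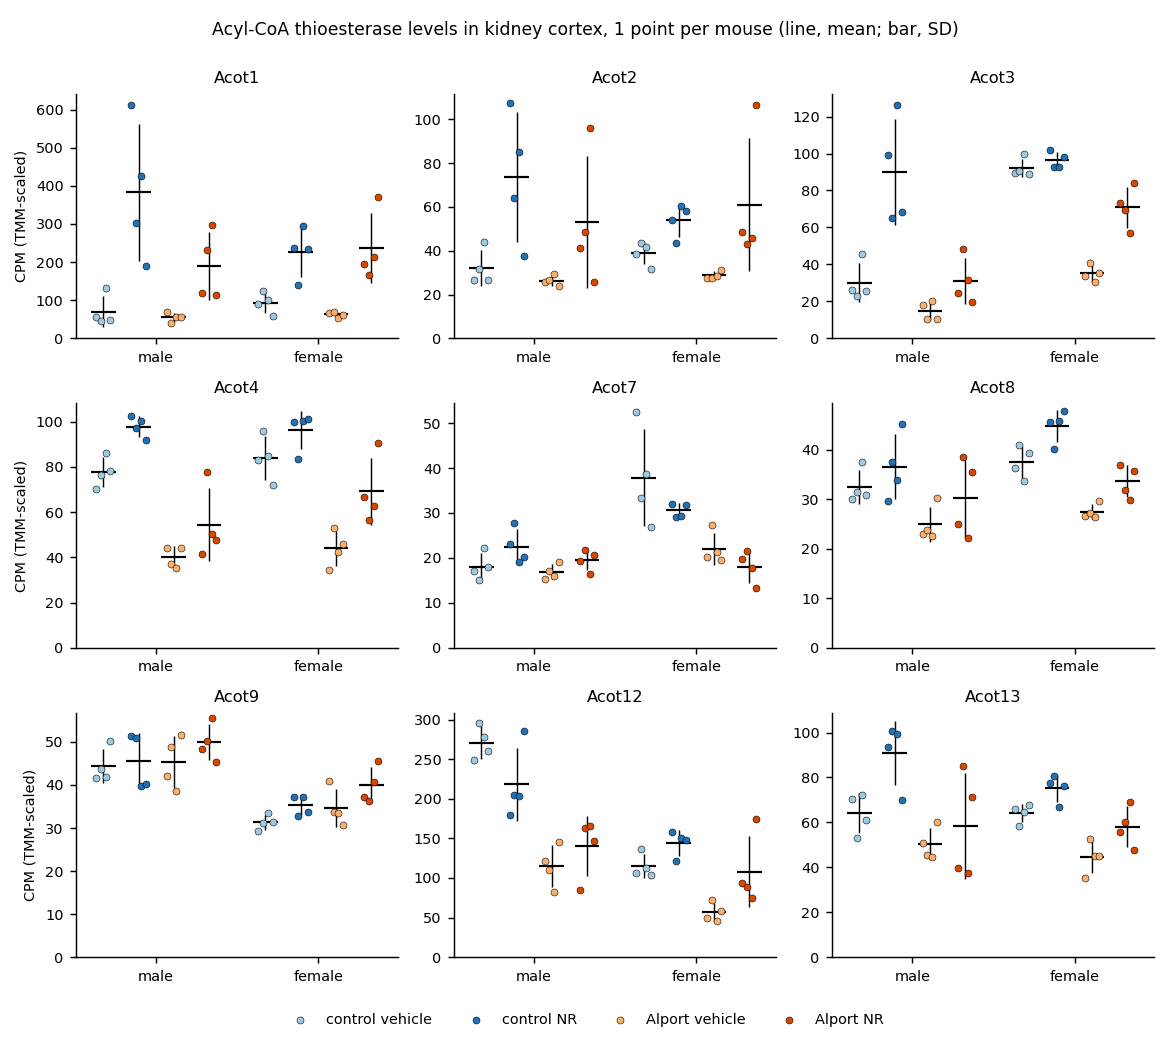
CPM (y axes, linear from 0) of the 9 members above the detection limit in each mouse (points), by sex (x axes) and group (colors), with the mean (line) and SD (bar) of 4 mice. Acot1 is highest in the male control NR group (191 to 611), Acot12 in the male control vehicle group (248 to 296), and Acot9 differs little between treatments.

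Differences between groups were then tested with the quasi-likelihood test of edgeR over all genes that passed the filter, and a gene was called at a Benjamini-Hochberg adjusted p under 0.05. The first question was whether the Alport genotype changed the thioesterases in vehicle-treated mice. Most were lower in Alport mice and none was called higher. In males 4 of 9 were called, against 50.8% of all genes tested, and in females 7 of 9, against 45.7%. With a genotype effect this broad, the share of members called in males was near the background. The median log2 fold change of the 9 members was -0.27 in males and -0.53 in females, beside medians over all genes of -0.0013 and -0.000835.

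Acot12 had the largest drop in males. It was at 248, 296, 278 and 261 CPM in the male control vehicle mice and at 121, 110.5, 82.2 and 146 CPM in the male Alport vehicle mice. All 4 Alport mice lay below all 4 controls, with a log2 fold change of -1.16 (SE 0.14, adjusted p = 3.38e-05). In females Acot12 was at 107, 137, 112 and 104 CPM in controls and at 49.3, 72.3, 45.8 and 58.3 CPM in Alport mice, again without overlap (log2 fold change -0.99, SE 0.14, adjusted p = 0.00045).

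The peroxisomal type I genes Acot3 and Acot4 fell in both sexes. Acot3 was at 26.2, 22.9, 45.7 and 25.5 CPM in male controls and at 18.0, 10.5, 20.5 and 10.6 CPM in male Alport mice. The male groups did not overlap, and the log2 fold change was -0.93 (SE 0.31, adjusted p = 0.0338), a call that was lost without male Alport vehicle mouse 2 (adjusted p = 0.073) or mouse 4 (adjusted p = 0.0896). In females Acot3 was at 89.6, 90.4, 99.7 and 89.1 CPM in controls and at 33.6, 41.0, 30.4 and 35.5 CPM in Alport mice. This was the largest drop of any member, at a log2 fold change of -1.36 (SE 0.09, adjusted p = 8.7e-06). Acot4, which prefers short dicarboxylic acyl-CoAs such as succinyl-CoA, went from 70.4 to 86.1 CPM in male controls to 35.1 to 44.4 CPM in male Alport mice and from 72.0 to 95.7 to 34.5 to 52.9 CPM in females. Neither sex overlapped, and the log2 fold changes were -0.88 (adjusted p = 8.47e-06) and -0.89 (adjusted p = 0.000333).

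The other members changed less. Acot8, the peroxisomal enzyme with the broadest range of substrates, was called lower in males (log2 fold change -0.30, adjusted p = 0.03) and in females (-0.41, adjusted p = 0.00112), and the male call was lost without male control vehicle mouse 3 or without Alport vehicle mouse 1, 2 or 3 (adjusted p up to 0.0931). Acot2 (-0.40, adjusted p = 0.00556), Acot7 (-0.74, adjusted p = 0.0123) and Acot13 (-0.49, adjusted p = 0.00378) were called lower in females (Acot2 not in the fit of all 32 mice, adjusted p = 0.295), and in males their log2 fold changes were -0.21, -0.02 and -0.27, none of them called. The sex-by-genotype interaction was tested directly on the 16 vehicle-treated mice with an added limit of a 2-fold difference. None of the 9 members was called by edgeR or by DESeq2, against 0.254% of all genes by edgeR, and 1 member, Acot7, had an unadjusted p under 0.05 (interaction -0.75, adjusted p = 0.208). Acot1 was not called in either sex (log2 fold change -0.26 in males and -0.53 in females, adjusted p = 0.625 and 0.0547). Without male control vehicle mouse 3 the male value was 0.24, also not called, and in females it was called by DESeq2 (adjusted p = 0.0124). With all mice, Acot9 was the only tested member with a positive difference, 0.11 in males and 0.19 in females, not called in either.

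Counting mice rather than p-values, 3 of 9 members in males (Acot3, Acot4 and Acot12) and 5 of 9 in females (these and Acot8 and Acot13) had all Alport mice below all controls. Over all genes tested, 47.4% in males and 43% in females had groups that did not overlap, in either direction.

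**Figure D3:**
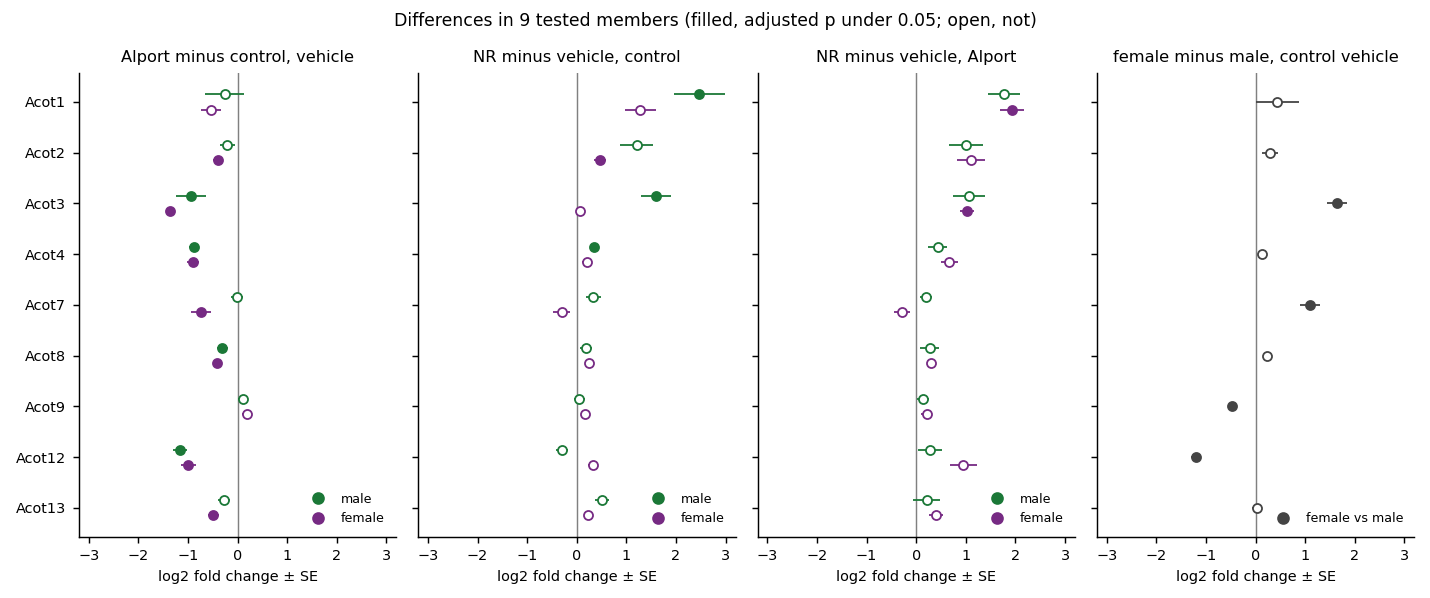
Log2 fold change with SE (x axes) of the 9 tested members (y axis) in 4 kinds of comparison, with males in green, females in purple and the comparison of the sexes in gray, and filled symbols for an adjusted p under 0.05. Genotype differences lie mostly left of 0 (down to -1.36 for Acot3 in females), and NR differences mostly right of 0 (up to 2.47 for Acot1 in male controls).

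The next question was whether NR changed the thioesterases in control mice. In males 3 of 9 members were called, all higher with NR, against 4.45% of all genes, and in females 1 of 9 was called higher, against 6.39%. Acot1 changed most. It was at 56.0, 45.0, 132 and 47.6 CPM in male control vehicle mice and at 611, 303, 425 and 191 CPM in male control NR mice. Every NR mouse was above every vehicle mouse, with a fold change of 5.53 (log2 fold change 2.47, SE 0.51, adjusted p = 0.0459). The 3 NR mice with the lowest Col4a3 had the 3 highest Acot1 levels. Acot3 was at 99.4, 65.2, 126 and 68.5 CPM with NR, above the 22.9 to 45.7 CPM of the vehicle mice (log2 fold change 1.59, SE 0.30, adjusted p = 0.0309). Acot4 was also called higher, with a small difference (log2 fold change 0.34, SE 0.08, adjusted p = 0.0424).

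These male calls rested on few mice. Without NR mice 1 and 3, whose Col4a3 was within the Alport range, the log2 fold changes were 1.81 for Acot1, 1.15 for Acot3 and 0.27 for Acot4, with adjusted p = 0.284, 0.158 and 0.236 in edgeR, so that no member was called, with 127 of 15188 genes called. Leaving out 1 mouse at a time kept Acot1 between 2.14 and 2.96 but lost its call in 6 of 8 cases (without vehicle mouse 1, 2 or 4 or NR mouse 1, 2 or 3, adjusted p up to 0.129). The Acot3 call was lost in 5 of these cases (adjusted p up to 0.102) and the Acot4 call in 6 (adjusted p up to 0.141). Without NR mouse 4, by contrast, 6 members and 1863 of 14775 genes were called, against 654 of 14696 genes with all mice. Among these members were Acot2 (1.43, adjusted p = 0.011) and Acot13 (0.63, adjusted p = 0.00851) as higher and Acot12 (-0.44, adjusted p = 0.0162) as lower. Marker levels also moved in this comparison: the summed proximal tubule markers were lower with NR (14796 to 22294 CPM, against 23810 to 26118), 5 of 6 endothelial and 3 of 7 fibroblast markers were called higher, and the part of this in the thioesterase values was not tested.

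In female controls Acot1 was at 90.3, 123, 102 and 58.1 CPM on vehicle and at 236, 139.6, 296 and 235 CPM with NR. The groups did not overlap, but the log2 fold change of 1.28 (SE 0.31) was not called by edgeR (adjusted p = 0.0651), while limma-voom (adjusted p = 0.0122) and DESeq2 (adjusted p = 0.000683) called it. Acot2, the mitochondrial copy of Acot1, was the member that was called, with a log2 fold change of 0.47 (SE 0.12, adjusted p = 0.0377). That call was lost without any of female control vehicle mice 1, 3 or 4 or NR mice 1, 3 or 4 (adjusted p up to 0.0965). Acot3 was at 89.1 to 99.7 CPM on vehicle and at 92.5 to 102 CPM with NR, a log2 fold change of 0.06 (SE 0.06, adjusted p = 0.612). The Acot3 levels of female controls on vehicle lay within the range of male controls with NR, 65.2 to 126 CPM.

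That sex difference in the NR response was tested as an interaction over the 16 control mice. Acot3 was the 1 member called, at an interaction of -1.52 (SE 0.31, adjusted p = 0.0454), which means a smaller NR difference in females, and 0.624% of all genes were called. The call held in 3 of the 16 fits that left out 1 mouse, with the interaction between -1.80 and -1.31 and an adjusted p up to 0.116. Without male control NR mice 1 and 3 the interaction was -1.08 (adjusted p = 0.152). The interaction of Acot1 was -1.17 (SE 0.60, adjusted p = 0.375) and that of Acot12, higher in females, was 0.64 (SE 0.17, adjusted p = 0.0847).

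In control mice, 3 of 9 members in males (Acot1, Acot3 and Acot4) and 1 of 9 in females (Acot1) had all NR mice above all vehicle mice. Over all genes tested the groups did not overlap for 13.4% in males and 14.6% in females.

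The third question was whether NR changed the thioesterases in Alport mice. In females 2 of 9 members were called, both higher with NR, against 0.458% of all genes. Acot1 was at 65.7, 70.2, 54.0 and 61.2 CPM in female Alport vehicle mice and at 196, 167, 213 and 372 CPM in female Alport NR mice. The groups were far apart, with a fold change of 3.81 (log2 fold change 1.93, SE 0.24, adjusted p = 0.0131). Acot3 was at 33.6, 41.0, 30.4 and 35.5 CPM on vehicle and at 73.5, 69.6, 56.9 and 83.8 CPM with NR, also without overlap, and its fold change was 2.03 (log2 fold change 1.02, SE 0.13, adjusted p = 0.0131). Both calls were lost when vehicle mouse 1, 3 or 4 was left out (adjusted p up to 0.0701 for each gene), with the log2 fold change still between 1.62 and 2.06 for Acot1 and between 0.93 and 1.11 for Acot3. Acot12, which edgeR did not call, was at 94.0, 88.7, 75.0 and 174 CPM with NR, above the 45.8 to 72.3 CPM on vehicle (log2 fold change 0.95, SE 0.27, adjusted p = 0.167, and 0.0141 by DESeq2).

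In female Alport mice, 6 of 9 members (Acot1, Acot2, Acot3, Acot4, Acot8 and Acot12) had every NR mouse above every vehicle mouse, beside 9.22% of all genes in either direction. The median log2 fold change of the 9 members was 0.66, beside 0.000493 over all genes. Proximal tubule markers hardly differed in sum (7460 to 11897 CPM on vehicle and 9009 to 10624 with NR), and edgeR called none of the 12, with 0 at an unadjusted p under 0.05, while summed fibroblast markers were 734 to 1205 and 305 to 982 CPM. Summed macrophage and lymphocyte markers were 285 to 508 CPM on vehicle and 64.3 to 434 with NR, and summed endothelial markers were 341 to 385 and 412 to 518 CPM, without overlap. The part of these shifts in the members' values was not tested.

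In male Alport mice edgeR called none of the 9 members and 0% of all 15500 genes with NR, with 3 members and 777 genes at an unadjusted p under 0.05. DESeq2 called 1 member, Acot1, and 62 genes, and limma-voom called 0 of each. Acot1 was at 69.0, 41.2, 54.9 and 56.9 CPM on vehicle and at 119, 232, 296 and 113 CPM with NR. All NR mice were above all vehicle mice, which held for this 1 member of 9 and for 3.21% of all genes, and the log2 fold change was 1.77 (SE 0.33, adjusted p = 0.454). Without male Alport NR mouse 1, which stood apart, it was 1.94 and was called (adjusted p = 0.0294), with 374 of 15662 genes called. Acot3 had a log2 fold change of 1.06 (SE 0.32), beside 1.02 (SE 0.13) in females, and Acot2 had one of 0.997 (SE 0.34), beside 1.10 (SE 0.28). Neither was called in males (adjusted p = 0.867 and 0.912). For both genes 1 of the 4 NR mice, mouse 4, lay within the vehicle range. The Acot2 difference was 0.54 in males without NR mouse 3, and 0.68 in females without NR mouse 4. All 9 members had a positive difference, with a median of 0.28 beside 0.01 over all genes. Summed proximal tubule markers were 8002 to 13275 CPM on vehicle and 4456 to 16703 with NR. NR mouse 3, with the highest Acot1 of its group, had the lowest of these sums. Summed fibroblast markers were 911 to 1461 and 366 to 1811 CPM, and macrophage and lymphocyte markers 347 to 504 and 114 to 662. The part of this spread in the members' values was not tested.

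The difference between the NR response of males and females was tested in Alport mice too, and edgeR called none of the 9 members and 0% of all genes, with 1 member and 361 genes at an unadjusted p under 0.05 (DESeq2 called 0 members and 1 gene, and edgeR without male Alport NR mouse 1 called 0 members and 0 of 16391 genes). The estimated interactions ranged from -0.50 for Acot7 to 0.64 for Acot12, and those of Acot1 and Acot3 were 0.14 (SE 0.43) and -0.06 (SE 0.37). The difference between the NR response of control and Alport mice likewise gave no called member and 0% of genes called in males, with 0 members and 1395 genes at an unadjusted p under 0.05 (DESeq2 called 0 members and 18 genes). Without male Alport NR mouse 1 this test called 784 of 15942 genes and again 0 members, and without male control NR mice 1 and 3 it called 0 of 16397 genes and 0 members. In females the same test called none of the members and 0% of genes, with 2 members and 1484 genes at an unadjusted p under 0.05. There Acot3 had an interaction of 0.94 (SE 0.14, adjusted p = 0.0714), larger in Alport mice, and DESeq2 (adjusted p = 2.75e-05, with 30 genes called) and edgeR without the low-count filter (adjusted p = 0.0232) called it.

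Set beside the vehicle-treated controls, NR-treated Alport mice reached different levels gene by gene. No test was made across these groups, since they differ in genotype and treatment at once. Acot1 in female Alport NR mice (167 to 372 CPM) was above all female control vehicle mice (58.1 to 123 CPM), and in males the ranges overlapped (113 to 296 CPM, against 45.0 to 132). Acot4 in female Alport NR mice (56.6 to 90.6 CPM, median 64.8) overlapped the controls (72.0 to 95.7 CPM, median 83.9). In males it was at 41.4 to 77.9 CPM (median 49.0), against 70.4 to 86.1 (median 77.3). Acot3 was below the controls in females (56.9 to 83.8 CPM, against 89.1 to 99.7) and overlapped them in males (19.9 to 48.2 CPM, against 22.9 to 45.7). Acot12 was below the controls in males (85.1 to 166 CPM, against 248 to 296). In females it was at 75.0 to 174 CPM (median 91.4), against 104 to 137 in the controls. No female Alport NR mouse lay inside that control range: the highest was above all controls and the others were below all of them.

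The sum over Acot1 to Acot6, in which reads assigned to the wrong copy still count, was higher with NR than on vehicle in every sex and genotype by group means. It was 227 ± 65.8 CPM (SD, n = 4) in male control vehicle, 658 ± 235 in male control NR, 146 ± 16.8 in male Alport vehicle and 341 ± 136 in male Alport NR mice. In females it was 323 ± 44.0, 489 ± 79.5, 181 ± 15.8 and 451 ± 145 CPM (SD, n = 4) in the same order. Acot1 took 28.4% to 37.8% of the summed counts in the vehicle groups and 45.6% to 56.3% in the NR groups. Acot4 took 24.2% to 35.7% on vehicle and 15.7% to 19.9% with NR, although its own mean CPM was not lower in any NR group than in the matching vehicle group.

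**Figure D4:**
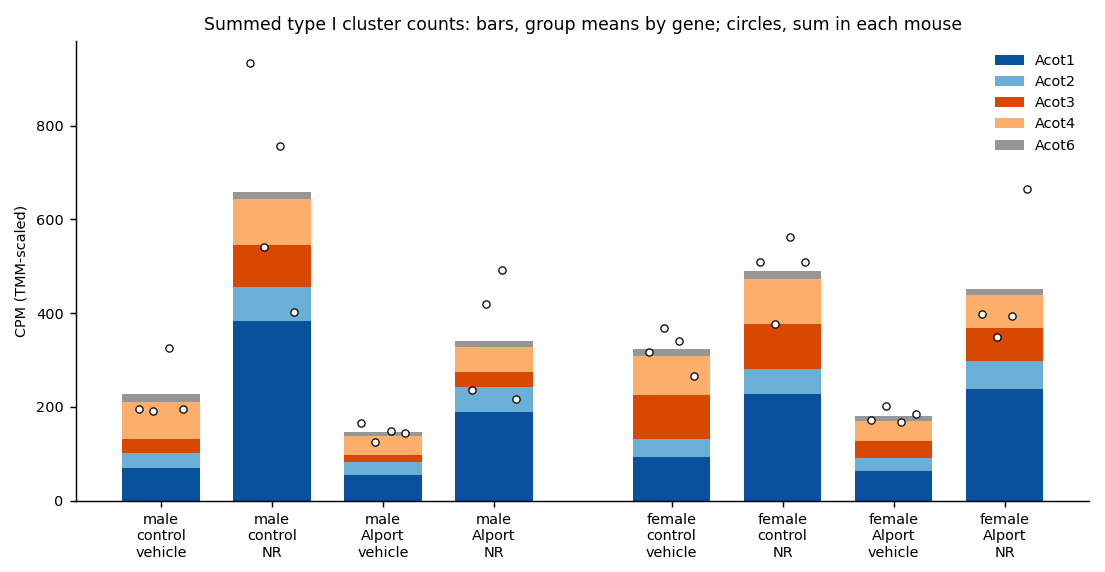
Summed CPM of the type I genes (y axis, linear from 0) in the 8 groups (x axis), with bars stacked from the group means of Acot1, Acot2, Acot3, Acot4 and Acot6 and circles for the sum in each of 4 mice, Acot5 included. The Acot1 segment grows most with NR, and the male control NR mice spread from 403 to 934 CPM.

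The sexes differed before any treatment. Between female and male control vehicle mice 4 of 9 members were called, against 31.5% of all genes, and the same 4 had groups that did not overlap, against 32%. Acot3 was 3.12-fold higher in females (log2 fold change 1.64, SE 0.21, adjusted p = 0.000789) and Acot7 was 2.13-fold higher (log2 fold change 1.09, SE 0.20, adjusted p = 0.00399). Acot7, best known as the abundant cytosolic thioesterase of neurons, was at 52.4, 33.3, 38.7 and 27.0 CPM in females and at 17.1, 15.1, 22.2 and 18.0 CPM in males. Acot12 was lower in females (log2 fold change -1.21, SE 0.09, adjusted p = 5.42e-07), as was the X-linked Acot9 (-0.48, SE 0.08, adjusted p = 0.000556). Without male control vehicle mouse 3, the mouse with the highest Acot1 of its group, 7 members and 4242 of 15247 genes were called. The additional members were Acot1 (0.94, adjusted p = 0.04), Acot2 (0.48, adjusted p = 0.00673) and Acot8 (0.31, adjusted p = 0.0154). Markers differed between the sexes as well: of 12 proximal tubule markers 6 were called lower in females and 1 higher, and 6 of 6 podocyte, 5 of 7 fibroblast, 3 of 6 endothelial and 3 of 8 loop of Henle and collecting duct markers were called higher. Their part in the members' differences was not tested.

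The rest of the fatty acid pathway was read from fixed lists. In Alport mice on vehicle, 16 of 17 mitochondrial beta-oxidation genes were called lower in males and 17 of 17 in females, with a median log2 fold change of -0.60 and -0.58. In males Hadhb, the beta subunit of the trifunctional protein, was at -0.73 (SE 0.09, adjusted p = 2.67e-05), and in females Decr1, a 2,4-dienoyl-CoA reductase, was at -0.63 (SE 0.09, adjusted p = 0.00022). Of 18 peroxisomal beta-oxidation genes 16 were called lower in males and 15 in females, and 1 in each, the transporter Abcd2, was called higher. Of 15 acyl-CoA synthetases 10 were called lower in each sex and 1 higher, Acsl5. Of 8 PPAR regulators 4 were called lower in males and 6 in females, and 1 in each, Pparg, was called higher. Ppara was called lower in both sexes (log2 fold change -0.94 with adjusted p = 2.8e-05 for males, -1.14 with 8.47e-05 for females). Hnf4a was also lower in both, Ppargc1a was among those lower in males and Ppargc1b among those lower in females. Of 6 tested relatives outside the member list, 4 were called lower in males and 6 in females, among them Hibch, which hydrolyzes an intermediate of valine breakdown (-0.88 and -0.69), and Acot6 (-0.80 and -0.41).

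With NR, called genes of the mitochondrial and peroxisomal oxidation lists were all higher, while acyl-CoA synthetases were called both ways. In male controls 6 of 17 mitochondrial and 4 of 17 peroxisomal genes were called, led by the thiolase Acaa2 (0.98, adjusted p = 0.00844) and by Ehhadh, the peroxisomal bifunctional enzyme (1.19, adjusted p = 0.000982). In female controls the counts were 10 of 17 and 8 of 18, led by Acaa2 (0.67, adjusted p = 0.00136) and Ech1 (0.63, adjusted p = 0.00268). In female Alport mice they were 4 of 17 and 3 of 18, led by Eci1, an enoyl-CoA isomerase (1.02, adjusted p = 0.00692), and Ehhadh (2.34, adjusted p = 0.019). Of 15 acyl-CoA synthetases, 2 were called higher and 3 lower (Acsm5, Acsm2 and Acsm3) in male controls, 3 higher and 1 lower (Acss3) in female controls, and 1 higher in female Alport mice. Acsl3 was among those higher in all 3 (1.14, 0.66 and 1.06). Of the 8 PPAR regulators, Ppara was called lower in female controls (-0.45, adjusted p = 0.00792), and edgeR called 0 in the other NR comparisons, with 0 to 3 at an unadjusted p under 0.05. In male Alport mice edgeR called 0 of the mitochondrial and peroxisomal genes, with 6 of 17 and 6 of 18 at an unadjusted p under 0.05. Of the 6 relatives outside the member list edgeR called 0 in each NR comparison, with 1 or 2 at an unadjusted p under 0.05. DESeq2 and limma-voom counts were not tallied for these lists. The comparisons with NR in a genotype share their vehicle mice with the comparison of genotypes.

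For the 4 members called in at least 1 NR comparison, the 3 genes with the most similar levels were taken from 14045 genes by Pearson's r over the 32 mice, as a description. These mice span 8 groups, so that r reflects group differences and library composition as well as variation between mice. For Acot1 they included Cyp4a10, a fatty acid omega-hydroxylase (r = 0.932), and Tkt, a transketolase (0.913). For Acot2 they were Fbp2 (0.924), Creb3l3 (0.885) and Tkt (0.883), and Acot1 and Acot2 themselves had r = 0.919. For Acot3 they were Hacl1, a peroxisomal enzyme of alpha-oxidation (0.956), Mfsd7c (0.932) and Mgll, which splits monoacylglycerols (0.917). For Acot4 they were Hadhb (0.940), the phosphate carrier Slc25a3 (0.929) and Hadha (0.928).

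The promoters of the members in the RefSeq table, which leaves out Acot13, were searched for DR1, the element bound by PPAR-RXR pairs, taken as 2 copies of AGGTCA spaced by 1 base on either strand. In windows from 250 bases before to 50 bases after the RefSeq transcript starts (GRCm38.p6), 0.0396% of 32851 promoters held a perfect match, 0.554% a match with at most 1 mismatch and 3.86% one with at most 2. Acot12 had a match with 1 mismatch that began 110 bases before the start, and Acot4 had one with 2 mismatches that began 13 bases before it. No match with at most 2 mismatches lay in these windows of Acot1, Acot2, Acot3, Acot5, Acot7, Acot8 or Acot9. The Acot7 window (chr4:152185358-152185657) lies inside the gene, and the bases around the gene's first base, 152178134, were not searched. The 120 bases before the start are printed for the 2 genes with a match and for the 2 that were called with NR in female Alport mice, with the match, which lies on the minus strand, in capitals.
Acot12, chr13:91741401-91741520, plus strand: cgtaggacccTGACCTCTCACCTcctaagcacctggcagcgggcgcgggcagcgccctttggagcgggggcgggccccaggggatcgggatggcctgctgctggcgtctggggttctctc
Acot4, chr12:84038259-84038378, plus strand: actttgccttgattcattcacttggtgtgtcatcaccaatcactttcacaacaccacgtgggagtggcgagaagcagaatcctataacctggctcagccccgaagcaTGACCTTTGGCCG
Acot3, chr12:84052024-84052143, plus strand: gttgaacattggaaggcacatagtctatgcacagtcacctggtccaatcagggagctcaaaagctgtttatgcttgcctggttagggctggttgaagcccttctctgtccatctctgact
Acot1, chr12:84009382-84009501, plus strand: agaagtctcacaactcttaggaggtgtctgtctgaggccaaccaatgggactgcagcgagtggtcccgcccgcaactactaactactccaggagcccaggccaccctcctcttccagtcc
These windows say nothing about elements farther away.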

How the data were processed

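RNA was isolated with RNeasy kits and libraries were prepared with the NEBNext Ultra II kit. The authors deposited raw counts per gene symbol (genome build mm10 per the labels), made from the sequencing files with BioJupies, and the same values as log10(CPM + 1), which were not used here. Genes were kept with filterByExpr (minimum count 10), scaled by TMM and tested with the robust quasi-likelihood test of edgeR 4.0.16 (R 4.3.3) on the 8 mice of each comparison or the 16 of each interaction, with Benjamini-Hochberg adjustment over all genes kept. Alternatives were DESeq2 1.42.0, limma-voom 3.58.1, RLE scaling, no filter, 1 fit of all 32 mice, a replicate block and leaving out mice. Gene models were GENCODE M21 and promoters RefSeq. The members, the pathway lists, the markers and the tests were chosen with earlier results of these data known, so that no list is independent evidence. All 10 members were named, and of each list at most 3 called genes per direction with the smallest adjusted p. Of the genes with levels most similar to a member (Pearson), 1 is not reported here. The replicate numbers were not treated as pairs. Over 28 same-numbered pairs r was -0.24 to 0.38, above 0.1 in 8. Mice with different numbers were not compared in this way, so whether the numbers pair the mice was not tested.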

Additional observations from a re-analysis of the deposited data

Results flagged for a closer look

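In 3 of the 72 groups of 4 mice checked (9 members in 8 groups), 1 mouse lay far from the other 3 by Dixon's criterion on the log2 scale, where about 1 in 20 groups would by chance. Acot2 was at 106 CPM in female Alport NR mouse 4, against 43.0 to 48.6 in the others, and without that mouse the NR difference of Acot2 in female Alport mice was 0.68 and called by edgeR (adjusted p = 0.00735). Acot3 was at 99.7 CPM in female control vehicle mouse 3, and Acot4 was at 83.7 CPM in female control NR mouse 2. The NR difference of Acot3 in control mice differed between the sexes by an interaction of -1.52 on the log2 scale (edgeR adjusted p = 0.0454), and in Alport mice the same interaction was -0.06.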

How the results depend on the processing

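No called result was reversed under any setting run. Of 1926 results of single members under other settings, 1752 kept their sign and stayed called or not called. Most were not called in the main fits, so this number does not measure how firm the calls are. The number of members called moved by over 1.5 times as follows. DESeq2 called 1 member with NR in Alport males, 5 in Alport females, 5 in control males and 4 in control females, 1 for the NR-by-genotype interaction in females and 2 for the NR-by-sex interaction in controls, against 0, 2, 3, 1, 0 and 1 by edgeR. Over all genes it called 62, 704, 1641, 1478, 30 and 491, against 0, 72, 654, 956, 0 and 96. The fit of all 32 mice called 1 with NR in Alport males, 4 in Alport females and 0 in control females, with 77, 240 and 20 of 16469 genes. Without the low-count filter the counts were 1 with NR in control males (Acot1 adjusted p = 0.0785, Acot3 0.0621), 1 for the NR-by-genotype interaction in females and 0 for the NR-by-sex interaction in controls. Over all genes these fits called 685 of 21979, 1 of 23647 and 83 of 23136. With NR in control females, limma-voom called 2 and edgeR without its robust prior, a setting added after the data were seen, called 2. Of 14951 genes they called 855 and 924. Leaving out male control NR mice 1 and 3, also added then, gave 0 with NR in control males and 0 for the NR-by-sex interaction in controls. There 127 of 15188 and 0 of 15921 genes were called.

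Leaving out 1 mouse at a time gave 2 to 5 members called for the genotype in males (2 without Alport vehicle mouse 2) and 7 to 8 in females, 0 to 1 with NR in Alport males, 0 to 3 in Alport females, 0 to 6 in control males and 0 to 4 in control females (4 without NR mouse 2). It gave 4 to 7 between the sexes, 0 to 1 for the NR-by-genotype interaction in females and 0 to 2 for the NR-by-sex interaction in controls (2 without male NR mouse 4). In the fits with NR the genes called ranged over 0 to 374, 9 to 163, 111 to 1863 and 422 to 857 in the same order of groups. For the genotype they ranged over 6872 to 7959 in males and 6026 to 7621 in females, and between the sexes over 3852 to 4446. For the NR-by-genotype interaction in females the range was 0 to 33, and for the NR-by-sex interaction in controls it was 6 to 671. Whether the replicate numbers pair the mice was not tested. With the replicate block, 0 members were called with NR in control females (Acot2 adjusted p = 0.0873), and Acot4 was not called with NR in control males (adjusted p = 0.082). These fits called 406 of 14951 and 413 of 14696 genes. The causes were not tested.

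With 4 mice a group, leaving out single mice ended calls in every NR comparison with calls. Acot5, at 0 counts in 5 mice, was below what this depth can compare.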
